A study of Mus musculus with 8 samples.

Results

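Myc and the proteins that share its partner Max were followed through the array probes of 10 genes in a pigmented mouse melanoma line, B16. The genes are Myc, Mycn, Max, Mxd1, Mxd3, Mxd4, Mxi1, Mnt, Mlx and Mga, and the members are all spots that carry one of these gene names. They came to 12 probes of the 55698 on the array, and to 10 of its 34834 gene names. Of the 10 genes, 8 could be tested, while Mycn and Mxi1 were above background on no array. Myc was chosen by its lower signal after 2 h of SEMA3E, so values in that comparison describe the choice and carry no test.

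The study asked which transcripts the secreted protein SEMA3E and its receptor plexin D1 change in these cells. Total RNA was read on 8 one-colour arrays in 4 groups of 2, which the labels call biological replicates: an untreated control (0 h on the label), a pair of groups given SEMA3E, one harvested at 2 h and one at 8 h, and a group harvested at 8 h of cytochalasin D. Cytochalasin D is a drug that caps actin filaments and stops their growth. All groups were the same cell line, grown in a high-glucose medium with fetal bovine serum, and the doses of both agents were not given in the sources used here. There was no untreated culture at 2 h or 8 h, so a treatment and its time in culture cannot be told apart against the control. The labels name no separate cultures beyond the word replicate, so p-values measure the spread between these arrays.

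MYC is a transcription factor of the basic helix-loop-helix leucine zipper class that binds DNA as a pair with MAX, best at the sequence CACGTG, called the E-box, and raises the expression of genes for ribosome assembly, nucleotide synthesis and the cell cycle. The MXD proteins, MXI1, MNT and MGA also pair with MAX and bind the same sequence, but they bring corepressors, so that the balance between activator and repressor pairs sets the output of shared targets. MLX is a parallel partner that pairs with MNT, with some MXD proteins and with the sugar-sensing factors MLXIP and MLXIPL. MYC messenger RNA and protein are both short-lived, and in pigment cells and melanoma MYC is known as a driver of growth.

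Levels are log2 of the processed signal minus the array's 75th percentile over probes above background on all 8 arrays, so that 0 is that percentile and a difference of 1 is a doubling. A level compares arrays for 1 probe and is not set against the level of another probe. The cells carried their labelled identity: all 8 melanocyte markers, among them Mitf, Dct and Tyrp1, were above background on every array. Of the markers of other cells, Lyz2, Cdh5 and Pdgfra were above background on no array, while Cd3e, Pecam1, Kdr, Col1a1 and Col1a2 were above it on all 8. The summed signal over arrays ran from 20.0 to 99.2 for the 4 leukocyte markers, from 58.1 to 205.5 for the 3 endothelial, from 11.2 to 45.5 for the 2 keratinocyte and from 138.4 to 371.6 for the 4 fibroblast markers, against 141900 to 271300 for the melanocyte markers. The part of these markers in the results below was not tested. Some arrays were dim before scaling: their 75th percentile of signal over all spots was 59.3 and 61.1 in the SEMA3E 2 h group and 66.8 for cytochalasin D replicate 2, where the remaining arrays had 111.0 to 154.3. SEMA3E 2 h replicate 2 also held 214 outlier spots, against 6 to 24 elsewhere, and only 3 of the 8 arrays correlated best with their own replicate. Each group lay in neighbouring positions of 1 slide, so position and group cannot be told apart.

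Myc was read by a single probe of 60 bases, and Mlx, the parallel partner, by another. Both are shown because they lie across the end of the coding sequence, so that the bases read can be placed in the transcript. Capitals mark codons up to and including the stop codon, and the lower-case bases at the end follow it. The Myc probe covers the last 14 codons before its stop and 13 bases after it, and the Mlx probe covers 17 codons before its stop and 6 bases after it. The gene of the Myc probe lies on chromosome 15 and that of the Mlx probe on chromosome 11.
Myc probe: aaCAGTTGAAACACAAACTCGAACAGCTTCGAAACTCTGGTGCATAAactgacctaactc
Mlx probe: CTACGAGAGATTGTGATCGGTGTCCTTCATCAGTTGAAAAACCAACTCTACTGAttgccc
The Myc stretch encodes the end of the leucine zipper through which MYC holds MAX, so the probe reads the messenger RNA at its coding 3′ end.

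Myc was lower on both SEMA3E time points than in control and cytochalasin D. Its level was 0.79 and 1.39 on the control arrays, -0.57 and -1.29 after SEMA3E for 2 h, -0.11 and -0.27 after SEMA3E for 8 h, and 1.32 and 1.14 after cytochalasin D. All 4 SEMA3E arrays lay below all 4 arrays without SEMA3E, but the 2 h and control arrays of that order are those that chose Myc, so it is a description and nothing is read from it. Beside it, 2.22% of all 18074 genes tested had this order, Myc as the single member, and 5.61% the reverse order, with 0 members. In bulk RNA, less Myc RNA in every cell and a smaller share of cells that carry it cannot be told apart.

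The order of the Myc group means was cytochalasin D at 1.23 ± 0.13, control at 1.09 ± 0.42, SEMA3E 8 h at -0.19 ± 0.11 and SEMA3E 2 h at -0.93 ± 0.51 (SD, n = 2 each). Cytochalasin D and control, next to each other in that order, overlapped. The SEMA3E groups did not overlap each other, with the 2 h arrays lower. Unscaled Myc signals were 4788 and 6022 in control, 806 and 477 at SEMA3E 2 h, 2522 and 1869 at SEMA3E 8 h, and 5112 and 3099 with cytochalasin D. Cytochalasin D replicate 2 was among the 3 dim arrays, and its Myc signal before scaling was still above those of the brighter SEMA3E 8 h arrays.

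**Figure D1:**
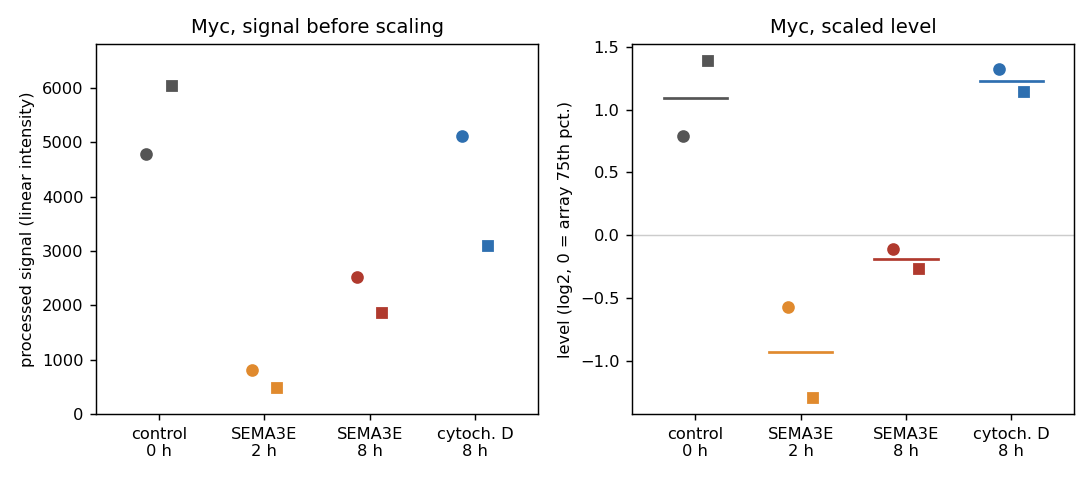
Myc on each of the 8 arrays, as processed signal on a linear axis (left) and as scaled log2 level (right), where 0 is the array's 75th percentile. Circles are replicate 1, squares replicate 2 and the bars group means. The 4 SEMA3E arrays lie between -1.29 and -0.11 and the other 4 between 0.79 and 1.39.

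The comparison that chose Myc is a description. At SEMA3E 2 h the Myc difference from control was -2.02 log2 units, which is 4.05-fold lower, and 59 of the 18074 genes were at or below that difference. From 2 h to 8 h of SEMA3E it lay 0.74 higher, also without a test, because the 2 h arrays chose it.

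The difference of cytochalasin D from SEMA3E at 8 h uses no array of the comparison that chose Myc, and its groups are matched in time. Its SE and p do draw on those arrays, since the spread is estimated from all 8. Myc was 1.42 ± 0.34 log2 units higher with cytochalasin D (SE, 95% interval 0.62 to 2.22), a 2.67-fold difference that both arrays of each group showed. The unadjusted p was 0.00377 and limma's adjusted p over all genes was 0.413, so the difference did not pass. Only 49 genes, or 0.271% of those tested, were as far or farther above 0. In this comparison 1 gene of all, or 0.00553%, passed.

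Against control, the Myc difference at SEMA3E 8 h was -1.28 ± 0.34 (95% interval -2.08 to -0.48), which is 2.43-fold lower. The unadjusted p was 0.0065 and limma's adjusted p was 0.666. This difference uses the same control arrays as the 2 h comparison, and 35 of the 18074 genes were at or below it. With cytochalasin D, Myc was 0.14 ± 0.34 above control (95% interval -0.66 to 0.94, limma's adjusted p = 0.9997), a range that holds changes of either direction. The 3 treatments share their control arrays.

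Mycn, the relative of Myc that is active mainly in neural and early embryonic cells, gave processed signals of 1.44 to 4.77 and was not above background on any of the 8 arrays. It has only a bound and no fold.

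Max, the partner of MYC, MXD, MNT and MGA, had levels of 0.64 and -0.02 in control, 0.80 and 1.001 after SEMA3E for 2 h, 0.88 and 0.40 after SEMA3E for 8 h, and 0.24 and 0.02 after cytochalasin D. The SEMA3E 2 h arrays were above both controls, and both SEMA3E 8 h arrays were above both cytochalasin D arrays. The controls themselves lay far apart. The Max difference of cytochalasin D from SEMA3E at 8 h was -0.51 ± 0.32 (95% interval -1.26 to 0.24, limma's adjusted p = 0.555). Against control it was 0.33 ± 0.32 higher after SEMA3E for 8 h and 0.59 higher, without a test, after 2 h.

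Mlx had levels of -1.67 and -0.88 in control, -1.51 and -1.25 after SEMA3E for 2 h, -1.31 and -0.89 after SEMA3E for 8 h, and -1.001 and -1.42 with cytochalasin D. Its groups overlapped in all 5 comparisons. The tested differences ran from -0.11 to 0.29, each with an SE of 0.35, and limma's 95% interval of cytochalasin D against SEMA3E at 8 h was -0.94 to 0.71.

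Mxd1, a repressor that appears as many cell types leave the cell cycle, was read by a pair of probes that share no bases, and the brighter one, probe 1, stood for the gene. Probe 1 had levels of -3.15 and -2.46 in control, -2.36 and -2.42 after SEMA3E for 2 h, -2.02 and -2.33 after SEMA3E for 8 h, and -2.37 and -2.07 after cytochalasin D. All 6 treated arrays were above both controls. At SEMA3E 8 h probe 1 was 0.63 ± 0.31 above control (limma's adjusted p = 0.836), and the difference of cytochalasin D from SEMA3E at 8 h was -0.048 ± 0.31.

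Probe 2 of Mxd1 gave another picture with cytochalasin D. Its levels were -3.87 and -3.77 in control, -3.46 and -3.44 after SEMA3E for 2 h, -2.68 and -3.12 after SEMA3E for 8 h, and -4.27 and -4.69 with cytochalasin D. Both cytochalasin D arrays were the lowest of the 8 and both SEMA3E 8 h arrays the highest. In a fit over all 24668 probes, the difference of cytochalasin D from SEMA3E at 8 h was -1.58 ± 0.29 for this probe (limma's unadjusted p = 0.00083, adjusted p = 0.361). SEMA3E at 8 h was 0.92 ± 0.29 above control (limma's unadjusted p = 0.015, adjusted p = 0.697). The probes thus disagreed on the sign against control with cytochalasin D, at 0.58 for probe 1 and -0.66 for probe 2, and neither passed.

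Mxd3, an MXD protein found in S phase cells, lay between -2.46 and -1.76 on the 8 arrays, with both cytochalasin D arrays, at -1.76 and -1.98, above all the others. Control replicate 2, at -1.98 too, was next to them, and the difference from SEMA3E at 8 h was 0.30 ± 0.28 (limma's adjusted p = 0.684). Mxd4 probe 1 lay between -4.37 and -3.54. At SEMA3E 8 h both its arrays, at -3.54 and -3.88, were above the controls at -3.93 and -4.37, by 0.44 ± 0.33 (limma's adjusted p = 0.884).

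Mxd4 probe 2 was above background on no array, with signals of 1.59 to 6.73, although its first 13 bases are the last 13 of probe 1. The shared stretch is shown because it places the probe without signal next to the one that gave signal.
Mxd4 shared bases: AAATATCATTTCT
Mxi1, a further MXD protein, was likewise above background on no array, with signals of 1.67 to 6.13. Neither probe was tested.

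Mnt, the widely expressed repressor that opposes MYC, varied little. Its levels were -0.62 and -0.09 in control, -0.12 and -0.05 after SEMA3E for 2 h, -0.16 and 0.05 after SEMA3E for 8 h, and -0.02 and -0.34 after cytochalasin D. Control replicate 1 was the lowest, and the groups overlapped in all comparisons with control. The tested differences of Mnt from control were 0.29 ± 0.29 for SEMA3E at 8 h and 0.17 ± 0.29 for cytochalasin D.

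Mga, a large protein that joins MAX to a Polycomb-type repressor complex, was dim, with processed signals of 10.5 to 78.7. Its levels were -5.14 and -4.92 in control, -5.66 and -6.79 after SEMA3E for 2 h, -5.52 and -5.33 after SEMA3E for 8 h, and -5.34 and -5.29 with cytochalasin D. Both SEMA3E 2 h arrays were the lowest, and replicate 2 of that group was not above background. The 2 h difference from control was -1.19, without a test, but with another background correction (normexp) it was 0.15. These 2 arrays were also the dimmest of the 8, and the part of that in the Mga value was not tested. The difference of SEMA3E at 8 h from control was -0.39 ± 0.38 (limma's adjusted p = 0.912).

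**Figure D2:**
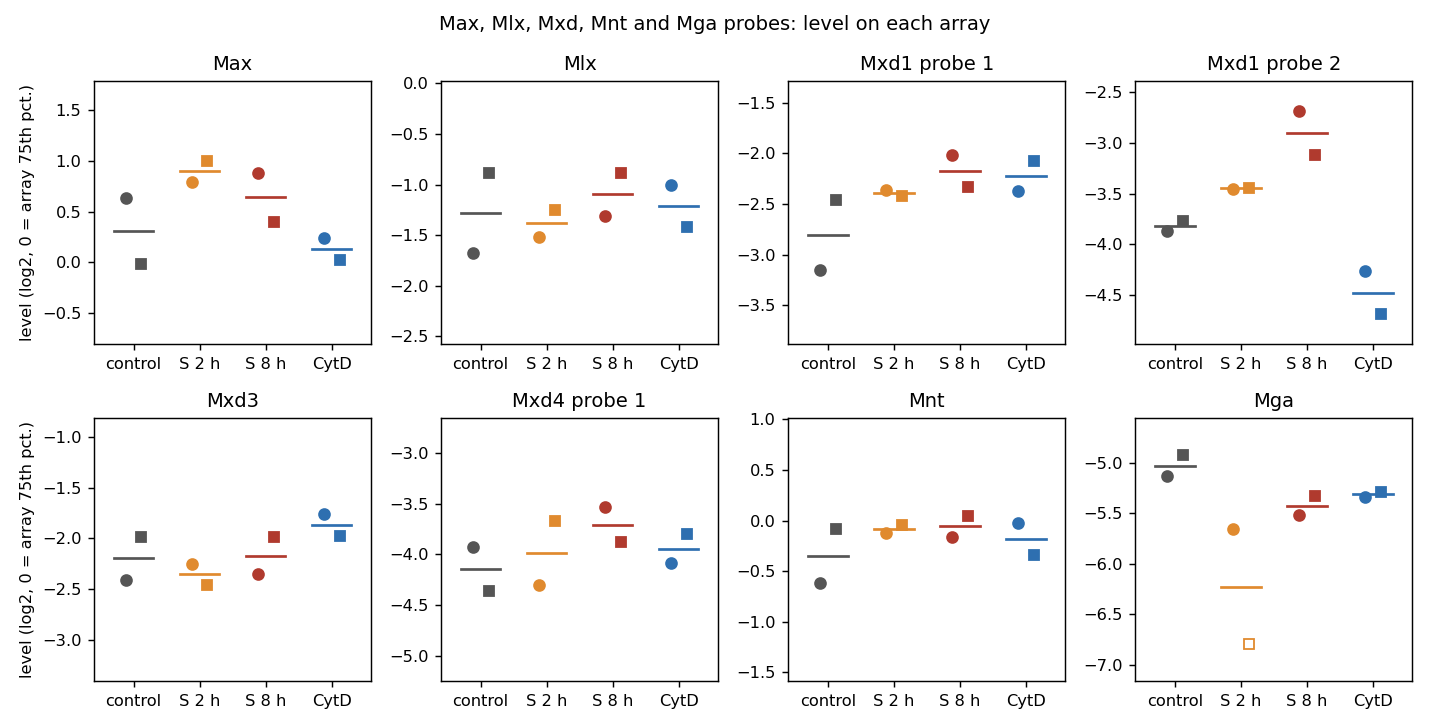
Scaled log2 levels of Max, Mlx and the tested Mxd, Mnt and Mga probes on each array, with S for SEMA3E and CytD for cytochalasin D. Circles are replicate 1, squares replicate 2, bars group means and open symbols arrays not above background. Every panel spans the same height in log2 units, and Mxd1 probe 2 is the probe on which cytochalasin D lies lowest.

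Counted over the 8 tested members, 0 passed an adjusted p of 0.05 in limma in any of the 4 comparisons with a test, where 0 to 0.00553% of all genes did. At an unadjusted p of 0.05 in limma, Myc alone passed for SEMA3E at 8 h against control and for cytochalasin D against SEMA3E. Of all genes, 6.13% and 11% did. That count takes Mxd1 by its brighter probe 1. Probe 2, in limma's fit over all probes, had an unadjusted p of 0.015 and 0.00083 in these comparisons. The SEMA3E 8 h comparison with control uses the control arrays that also chose Myc, so it is not independent of that choice. For cytochalasin D against SEMA3E, the difference uses none of the choosing arrays. Its p does draw on them, through a spread estimated from all 8 arrays. Cytochalasin D against control and SEMA3E at 8 h against 2 h, the latter without Myc, gave 0 such members, beside 2.43% and 11.6% of all genes. In the SEMA3E 8 h group, 2 members lay wholly above control and 2 wholly below, against 25.1% and 12.4% of all genes. With cytochalasin D, 2 lay above control and 1 below, against 15.9% and 13%. Cytochalasin D against SEMA3E at 8 h gave 2 above and 1 below, against 19.6% and 32.8%, and SEMA3E at 8 h against 2 h gave 3 above and 0 below, against 27.9% and 22.6%. Of these 3, Myc counts only through the 2 h arrays that chose it, and the other two are Mxd1 and Mga. In the comparison that chose Myc, 2 members lay above and 2 below, beside 24.5% and 15.2% of all genes, and nothing is read from it. Separate groups of 2 were thus common among all genes.

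**Figure D3:**
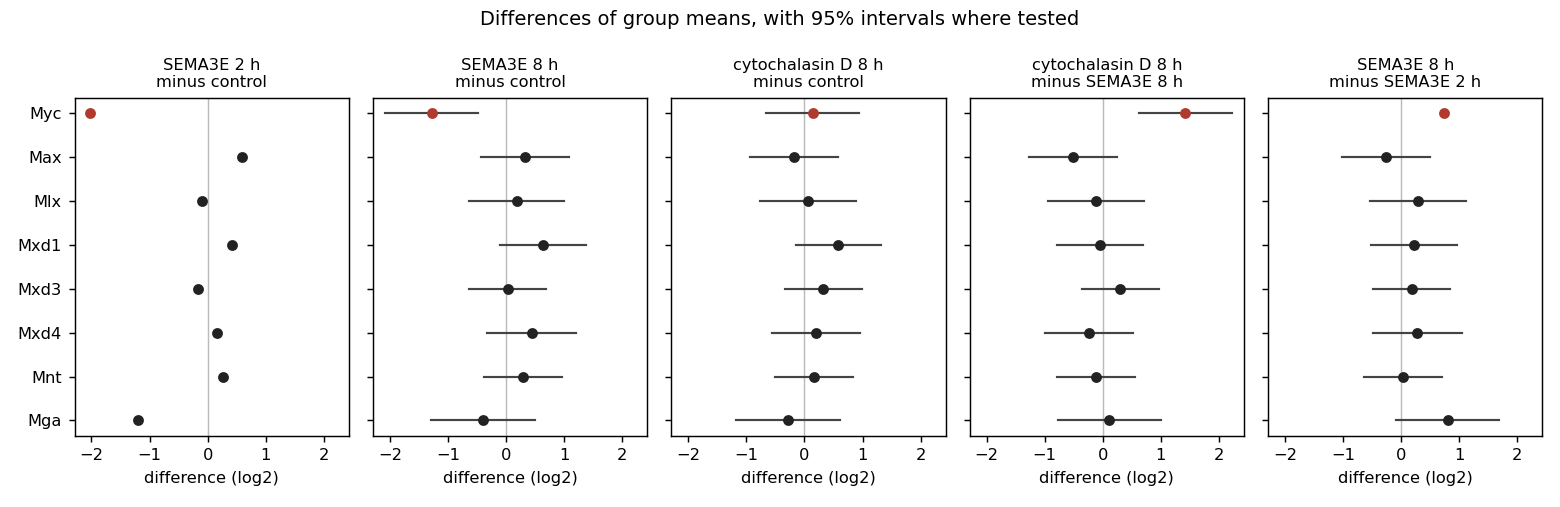
Differences of group means in log2 units for the 8 tested members in 5 comparisons, with 95% intervals from limma where a test was made. Myc, in red, is at -1.28 for SEMA3E 8 h minus control and at 1.42 for cytochalasin D minus SEMA3E 8 h. All the intervals of the other members include 0.

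The genes most like Myc over the 8 arrays were sought among 3635 genes above background on all arrays with an SD of at least 0.5. The 5 highest Pearson r ran from 0.92 to 0.96, and 3 of these probes carry no gene name in the files. The named ones were Taf1b, a subunit of the factor that starts ribosomal RNA transcription by RNA polymerase I, and Dph3, which takes part in making diphthamine, a modified amino acid of elongation factor 2. Taf1b stood at r = 0.94 and Dph3 at r = 0.92, as descriptions over 8 arrays that share the group structure.

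Taf1b levels were -3.34 and -2.66 in control, -4.00 and -4.19 after SEMA3E for 2 h, -3.93 and -3.47 after SEMA3E for 8 h, and -3.03 and -2.87 with cytochalasin D. Dph3 levels were -3.06 and -3.17 in control, -4.03 and -4.61 after SEMA3E for 2 h, -3.85 and -3.74 after SEMA3E for 8 h, and -3.37 and -2.77 with cytochalasin D. As for Myc, the SEMA3E arrays of both genes were the lowest 4, which the choice by likeness to Myc favours.

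The wider pathway was taken from lists of genes that MYC is known to activate or to repress and of its cofactors and the corepressors of its opponents. Among 65 tested of 66 activated genes, most of them for ribosome assembly, 0 passed in any comparison with limma under the settings used here. With normexp 1 was called higher at SEMA3E 2 h, where 3454 of all 18074 genes tested were called in either direction. Some of the list were also called without SEMA3E 2 h replicate 1. That leaves 1 array in the group, so nothing is read from them. At SEMA3E 8 h, 37 lay above control and 28 below, with a median of 0.03 beside 0.12 over all genes, and 0 reached an unadjusted p of 0.05. With cytochalasin D against SEMA3E at 8 h, 36 lay above and 29 below, with a median of 0.08 beside -0.13 over all genes. There, 3 were higher at an unadjusted p of 0.05, beside 2.27% of all genes. Neither direction was stable: over 16 alternative settings the median ran from -0.18 to 0.09 in the first comparison and from -0.075 to 0.32 in the second. After SEMA3E for 2 h, a description, 26 lay above and 39 below, with a median of -0.19 beside 0.06 over all genes. Over the same alternatives the list's median there ran from -0.30 to 0.04, the last without control replicate 2.

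Named by the smallest p, Nolc1, a nucleolar protein that binds RNA polymerase I, was 0.83 ± 0.29 higher with cytochalasin D than with SEMA3E at 8 h (limma's adjusted p = 0.438). Ppan, a ribosome assembly factor, was 0.75 ± 0.27 higher. The difference was -1.19 ± 0.52 for Cad, which starts pyrimidine synthesis, and -0.69 ± 0.30 for the D-type cyclin Ccnd2. Cad levels were -6.73 and -8.29 with cytochalasin D, the second on a dim array, and -6.19 and -6.45 at SEMA3E 8 h. Genes were named from each direction, so these signs do not describe the list. For SEMA3E at 8 h against control, the kinase gene Cdk4 stood at 0.49 ± 0.32 and the phosphatase gene Cdc25a at -0.58 ± 0.29.

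Of 17 genes that MYC is known to repress, many of them cell cycle inhibitors, 15 were tested and 0 passed with limma in any comparison under the settings used here. With normexp, 5 were called higher at SEMA3E 2 h against control, the comparison that chose Myc. Of all 18074 genes tested, 3454 were called there in that setting, in either direction. Some of the list were also called without SEMA3E 2 h replicate 1. That leaves 1 array in the group, so nothing is read from them. After SEMA3E for 8 h, 11 lay above control and 4 below, with a median of 0.60 beside 0.12 over all genes, and 4 were higher at an unadjusted p of 0.05, beside 5.38% of all genes. With cytochalasin D against SEMA3E at 8 h, 4 lay above and 11 below, with a median of -0.79 beside -0.13 over all genes. There, 7 were lower at an unadjusted p of 0.05, beside 8.74% of all genes. Against control, cytochalasin D left 4 above and 11 below, with a median of -0.14 beside 0.03. Over 16 alternative settings the list's median kept its sign in the first 2 of these comparisons. For SEMA3E at 8 h against control it ran from 0.19 to 0.63. The low end, without SEMA3E 8 h replicate 1, stood beside 0.16 over all genes. The high end, without the filter on dim probes, stood beside 0.53. For cytochalasin D against SEMA3E it ran from -0.84 to -0.13. These ends stood beside -0.17 over all genes, without cytochalasin D replicate 1, and 0.11, with normexp background correction. In the third comparison it ran from -0.17 to 0.12.

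Ndrg2, a gene that MYC represses through its partner MIZ1, had levels of -8.23 and -7.79 in control, -7.05 and -8.07 after SEMA3E for 2 h, -6.16 and -6.18 after SEMA3E for 8 h, and -7.90 and -8.17 with cytochalasin D. The SEMA3E 8 h arrays were the highest, and cytochalasin D was above background on 0 of 2 arrays. SEMA3E at 8 h was 3.64-fold above those readings (limma's adjusted p = 0.413). As they are not above background, the size of that fold is not established. Against control, Ndrg2 was 1.84 ± 0.38 higher at SEMA3E 8 h (limma's adjusted p = 0.421).

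Gas1, a growth arrest gene, had levels of -6.50 and -6.87 in control, -6.07 and -5.62 after SEMA3E for 2 h, -5.27 and -5.81 after SEMA3E for 8 h, and -6.81 and -6.96 with cytochalasin D. All 4 SEMA3E arrays were the highest of the 8, an order that 5.61% of all genes tested had. Gas1 was named for its small p in these comparisons, which favours that order. It was 1.14 ± 0.31 above control at SEMA3E 8 h, and its difference of cytochalasin D from SEMA3E was -1.34 ± 0.31 (limma's adjusted p = 0.671 and 0.413). Cdkn1a, the gene of the p21 cell cycle inhibitor and named for its place at 2 h, was 1.19 ± 0.46 above control at SEMA3E 8 h and differed by -1.31 ± 0.46 between cytochalasin D and SEMA3E at 8 h. Thbs1, a secreted matrix protein of the same list, was named from those below 0 and differed from control by -0.65 ± 0.35 at SEMA3E 8 h.

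**Figure D4:**
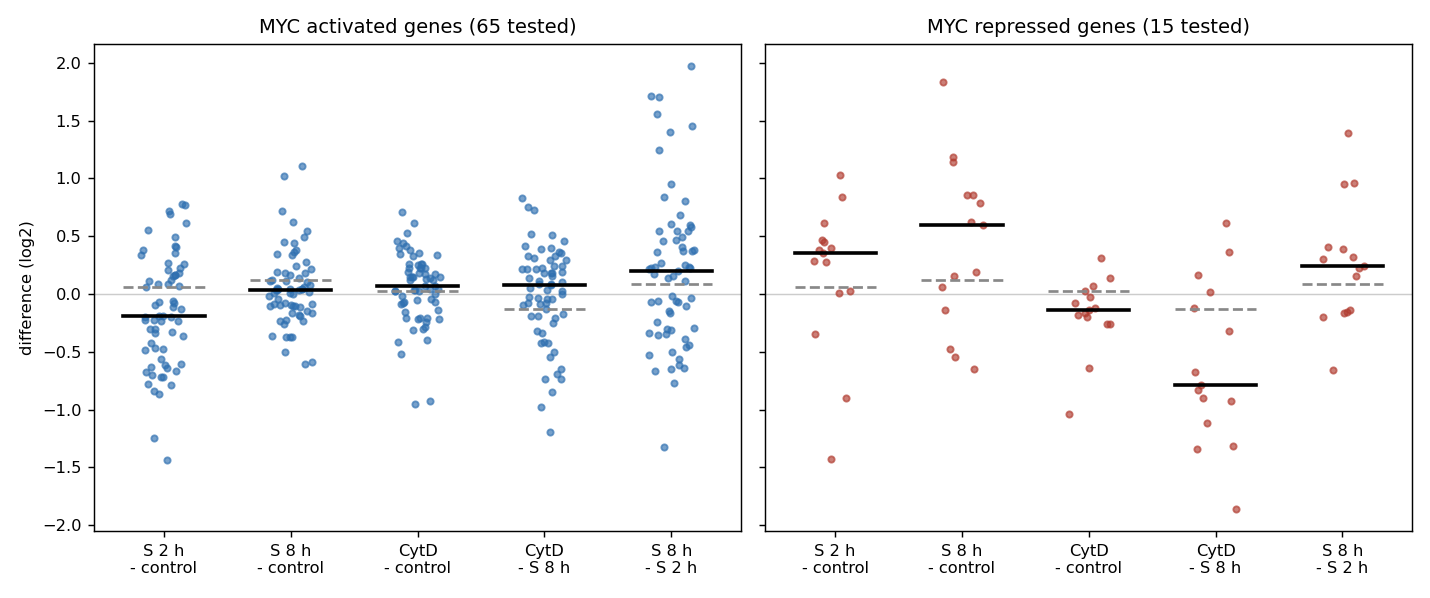
Differences in log2 units of each tested gene that MYC activates (left, 65 genes) or represses (right, 15 genes) in 5 comparisons, with S for SEMA3E and CytD for cytochalasin D. Black bars are list medians and dashed grey bars the medians of all genes. The repressed list has its median at 0.60 for SEMA3E 8 h minus control and at -0.79 for cytochalasin D minus SEMA3E 8 h.

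Among 17 tested of 19 cofactors and turnover genes of MYC, 0 passed with limma. With cytochalasin D against SEMA3E at 8 h, 14 lay above and 3 below, where 39.7% of all genes lay above 0. The list's median was 0.25 beside -0.13 over all genes. Over 16 alternative settings it ran from 0.14 to 0.50, the last with scaling on all probes, beside 0.12 over all genes. Trrap, the scaffold of the acetyltransferase complexes that MYC recruits, was 1.01 ± 0.31 higher (limma's adjusted p = 0.415) and Hcfc1, a MYC-binding cofactor, 0.69 ± 0.27 higher. The kinase gene Gsk3b, whose product marks MYC for destruction, stood at -1.64 ± 0.84. At an unadjusted p of 0.05, 3 were higher there, beside 2.27% of all genes.

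All 16 corepressor genes were tested and 0 passed with limma. Hdac2, a histone deacetylase of the SIN3 complex that MXD proteins bring, had levels of -3.56 and -3.07 in control, -5.06 and -4.63 after SEMA3E for 2 h, -4.77 and -3.79 after SEMA3E for 8 h, and -3.27 and -3.51 with cytochalasin D. The SEMA3E arrays were the 4 lowest, an order that 2.22% of all genes tested had. Hdac2 was named for its small p below 0 against control at both SEMA3E times, which favours that order. At 8 h Hdac2 differed from control by -0.97 ± 0.39 (limma's adjusted p = 0.787). Ring1, a subunit of the Polycomb complex that holds MGA, was 1.42 ± 0.29 higher at 8 h of SEMA3E than at 2 h (limma's adjusted p = 0.371), although SEMA3E 2 h replicate 2 was not above background for it, so that 1 array of that group measured it. In that comparison 3 corepressor genes were higher at an unadjusted p of 0.05, beside 8.25% of all genes.

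The E-box itself could be searched in 300-base promoter windows around annotated starts, of which the last 50 bases follow the start, from RefSeq on GRCm38.p6. The motif was CACGTG, which reads the same on both strands. It was present in 7.15% of 32851 promoters and in 28.8% of the 66 promoters of 57 MYC activated genes. Of the 16 promoters of 13 repressed genes, 2, or 12.5%, held it. The remaining genes of both lists had no promoter window. Of the members, 9, all but Myc, had 11 promoters in that table, and 4 of these held it. They are shown with 12 bases to either side and with the E-box in capitals, since MAX pairs bind this sequence and these are the network's own genes that carry it.
Mxd4, chr5:34187912-34187941, minus strand: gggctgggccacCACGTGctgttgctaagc
Mnt, chr11:74830789-74830818, plus strand: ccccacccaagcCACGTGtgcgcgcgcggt
Mlx, chr11:101087238-101087267, plus strand: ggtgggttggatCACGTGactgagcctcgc
Max, chr12:76962234-76962263, minus strand: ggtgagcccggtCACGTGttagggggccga
The E-box began 219 bases before the start of Mxd4, 123 before that of Mnt, 40 before that of Mlx and 3 before that of Max. A match is a description of letters, and no binding was measured here.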

How the data were processed

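The authors deposited 1 scanner file per array and a table with 1 value per gene name. Agilent Feature Extraction 11.5.1.1 made the scanner files, per the file headers, and the submitters' processing notes name that tool too. Per the file headers, the processed signal is a linear intensity with background subtracted and no scaling between arrays. The deposited table also holds intensity, with column medians of 5.30 to 28.7, and served as an alternative. The headers name build mm9 but place no probe used here, so promoters come from RefSeq on GRCm38.p6 and chromosomes from RefSeq's gene table.

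Of 62976 spots per array, 1439 control spots and all outlier spots were left out, and repeated spots were averaged. A probe was tested if it was well above background on both arrays of at least 1 group, which left 24668 probes. The brightest such probe stood for a gene, which gave 18074 genes, and 0 spots were saturated. Levels are log2 of the signal minus the 75th percentile of the 18691 probes above background on all 8 arrays. Group means were fitted in limma 3.58.1 (R 4.3.3) to all arrays, with moderated two-sided tests and Benjamini-Hochberg adjustment over all genes, called at an adjusted p under 0.05. A value is a difference ± SE, or a mean ± SD. The fit was tested on simulated data. With 2 arrays per group the number of arrays limits the precision, and the median SE of a difference was 0.34.

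Same-numbered arrays were not treated as pairs. The correlations of their deviations from group means ran from -0.15 to 0.14. With 2 arrays per group, these values cannot tell whether such arrays shared a batch. No pair of arrays, of 28, held identical values. The members and the gene lists were chosen with earlier results of these data known. A rule picked, for each list and comparison, the pair of genes with the smallest p in each direction. Only a part of those picked is named, together with all members and the genes most like Myc that carry a name. Among those not described above, Cebpd and Tgfbr2 of the repressed list differed from control by -1.43 and -0.90 at SEMA3E 2 h. For both, replicate 2 of that group lay far below replicate 1. Cebpd had -0.80 and -3.28 beside controls of -0.51 and -0.72, and Tgfbr2 had -1.44 and -2.91 beside -1.38 and -1.16. In that comparison 12 of the list lay above control and 3 below. Alternatives were the background correction, the normalization, the filters, the probe rule, the deposited table, the replicate block and leaving out each array.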

Additional observations from a re-analysis of the deposited data

How the results depend on the processing

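The 8 tested members were recomputed in 5 comparisons under 16 alternatives, 8 of which left out an array. For Myc the difference of SEMA3E at 8 h from control ran from -1.58 to -0.98 and that of cytochalasin D from SEMA3E at 8 h from 1.33 to 1.67, and neither passed in any of them (the smallest adjusted p in limma was 0.439 and 0.274). At SEMA3E 2 h, which chose it, Myc ran from -2.38 to -1.66. The count of members past the threshold in that comparison was 1 with normexp, which was Myc, and ran from 0 to 2 when an array was left out, with 2, Myc and Mga, without SEMA3E 2 h replicate 1, which leaves a lone array assumed to vary like the other groups. As that comparison chose Myc, nothing is read from these counts. The number of all genes past the threshold there was 0, but 3454 with normexp, 416 without that array and 20 with the deposited table. For SEMA3E at 8 h against 2 h it was 0, but 461 without that array and 20 with the table. It was 1 for SEMA3E at 8 h against control (0 to 13), 0 for cytochalasin D against control (0 to 9) and 1 for cytochalasin D against SEMA3E (0 to 13). The replicate block left 0 members called in all comparisons and moved the count for SEMA3E at 8 h against control from 1 to 7 genes. Scaling on all probes moved the median of all genes from 0.12 to -0.10 (SEMA3E 8 h against control), from -0.13 to 0.12 (cytochalasin D against SEMA3E) and from 0.09 to -0.17 (SEMA3E 8 h against 2 h), and with it the activated genes above control at SEMA3E 8 h to 14 of 65. The sign of small member differences turned as follows, and the cause was not tested. At SEMA3E 2 h against control, Mxd3 ran from -0.37 to 0.11, Mxd4 from -0.15 to 0.59 and Mlx from -0.50 to 0.29 over all alternatives, each with its sign kept in 14 of 16. Normexp gave 0.16 for Mga in the cytochalasin D comparison with control, 0.15 for Mga at SEMA3E 2 h against control, and -0.074, -0.10, -0.26, -0.055 and -0.25 for Mxd1, Mxd3, Mxd4, Mnt and Mga at SEMA3E 8 h against 2 h. Quantile normalization gave -0.062 for Mxd3 at SEMA3E 8 h against control, 0.065 for Mxd1 with cytochalasin D against SEMA3E and -0.017 for Mxd3 at 8 h against 2 h. Scaling on all probes gave -0.19 for Mxd3 and -0.038 for Mlx (SEMA3E 8 h against control), 0.20, 0.010, 0.12 and 0.13 for Mxd1, Mxd4, Mnt and Mlx (cytochalasin D against SEMA3E), and -0.044, -0.077 and -0.23 for Mxd1, Mxd3 and Mnt (8 h against 2 h). For Mxd1 with cytochalasin D against control, the mean of its probes gave -0.040 and the deposited table -0.038. With an array left out, Mxd3 ran from -0.19 to 0.24 and Mlx from -0.21 to 0.57 for SEMA3E at 8 h minus control. Cytochalasin D minus control gave Myc values that ran from -0.16 to 0.44, Max from -0.51 to 0.15, Mxd4 from -0.019 to 0.42, Mnt from -0.094 to 0.43 and Mlx from -0.33 to 0.46. Against SEMA3E, Mxd1 ran from -0.21 to 0.11, Mnt from -0.28 to 0.033 and Mlx from -0.33 to 0.10, and at 8 h against 2 h Mxd4 ran from -0.032 to 0.59 and Mnt from -0.079 to 0.13. Signal over background limits Mga most, and Mycn, Mxi1 and Mxd4 probe 2 had none.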

Other observations

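Of 5 relatives of the members, Mycl, the third MYC gene, was above background on no array, and the other 4 were tested with 0 passing in limma. Mlxipl, the carbohydrate-responsive partner of MLX, had levels of -3.12 and -2.84 in control, -2.54 and -1.83 after SEMA3E for 2 h, -2.54 and -2.07 after SEMA3E for 8 h, and -2.45 and -3.39 with cytochalasin D. Its SEMA3E arrays all lay above control, while cytochalasin D lay to either side of the controls, and the difference of SEMA3E at 8 h from control was 0.68 ± 0.41 (limma's adjusted p = 0.865). Usf2, an E-box factor outside the MAX family, was 0.89 ± 0.41 higher with cytochalasin D than with SEMA3E at 8 h (limma's adjusted p = 0.472). Mlxip, the other partner of MLX, differed by -0.07 ± 0.28 in that comparison.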
